A study of Mus musculus with 71 samples.

Results

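A set of 9 genes of the heart muscle cell was followed through the RNA libraries of this series: 7 encode parts of the contractile apparatus (Myh6, Myh7, Tnnt2, Tnni3, Actc1, Myl4 and Myl7) and 2 encode natriuretic peptides (Nppa and Nppb). They were taken by symbol, and all 9 were found among the 24222 genes of the count tables. The libraries come from mouse embryonic stem (ES) cells of strain C57BL/6 grown on gelatin in 2i, an inhibitor medium for the naive state. There are 3 groups of 3 libraries: WT, a double knockout of the H3K27 methyltransferase genes Ezh1 and Ezh2 (dKO), and one more group, labelled EZH2 rescue, in which wild-type EZH2 is re-expressed according to the design text. The labels give neither the origin of the rescue cells nor the number of clones in a group. They do not say whether replicates are separate cultures; the p-values therefore rest on the spread among libraries alone, which may be technical. Beside the RNA, 7480 Suz12 peaks called in wild-type 129B6F1 ES cells were used.

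In a heart muscle cell, force comes from myosin heavy chains (Myh6, the alpha chain, and Myh7, the beta chain) carrying essential and regulatory light chains (Myl4 and Myl7, the forms of the atrium), which pull on cardiac actin (Actc1). Troponin on the thin filament switches this pull on with calcium: Tnnt2 holds the complex to tropomyosin and Tnni3 is its inhibitory subunit. Nppa and Nppb encode the hormones ANP and BNP, which heart muscle releases under stretch. Polycomb repressive complex 2 (PRC2), which uses Ezh1 or Ezh2 to methylate H3K27, is known for keeping developmental regulators silent in ES cells, and it gathers mostly at promoters rich in CpG dinucleotides.

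Libraries held between 12457622 and 36009529 counts. Levels are given as CPM, a library's counts scaled to a fixed total after TMM correction for composition. Correlations of log2 CPM across genes were 0.986 to 0.997 within groups and 0.925 to 0.972 between them, and genes are not independent replicates. In dKO, replicate 3 stood apart, at 0.986 and 0.989 with the other two, which correlated at 0.9945. Values without it are given where a member depends on it. Of 12 listed ES cell markers 12 passed the filter on low counts, as did 14145 of all 24222 genes. Their summed levels were 8280 to 8447 CPM in WT, 7245 to 7322 in dKO and 9769 to 9927 in rescue. In dKO against WT 8 of the 12 were lower and 2 higher (edgeR adjusted p under 0.05), beside 31.0% and 33.7% of all tested genes. In rescue against dKO 1 was lower and 8 were higher, beside 38.2% and 32.1%. Ezh1 was at 47.9 to 53.4 CPM in WT, 1.80 to 2.34 in dKO and 2.34 to 3.42 in rescue. Ezh2 was at 308 to 314, 191 to 214 and 549 to 576 CPM in the same order; counts per gene cannot show a deleted exon or separate an introduced transcript from the native one. On chromosome 14, which holds Myh6 and Myh7, the median of 465 tested genes stood 0.80 to 0.83 log2 units under the WT mean in the 3 rescue libraries, and 0.01 to 0.18 under it in the dKO libraries.

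The stretches just before the start sites of the members are shown first. They are RefSeq sequences of GRCm38.p6, the assembly behind mm10, written 5′ to 3′ on the strand of the gene and ending at the base before the start site. Capitals in the first set mark CpG dinucleotides. The set holds the 250 bases before a listed start of both myosin heavy chain genes, at chr14:54966608-54966857 and chr14:54994627-54994876 (minus strand). It also holds the 42 bases between the gene Cdc27 and the listed start of Myl4, at chr11:104550621-104550662 (plus strand).
Myh6: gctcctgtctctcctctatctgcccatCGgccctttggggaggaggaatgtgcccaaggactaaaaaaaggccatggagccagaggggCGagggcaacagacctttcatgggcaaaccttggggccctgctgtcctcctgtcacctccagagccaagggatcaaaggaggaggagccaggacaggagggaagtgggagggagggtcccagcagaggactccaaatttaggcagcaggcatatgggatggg
Myh7: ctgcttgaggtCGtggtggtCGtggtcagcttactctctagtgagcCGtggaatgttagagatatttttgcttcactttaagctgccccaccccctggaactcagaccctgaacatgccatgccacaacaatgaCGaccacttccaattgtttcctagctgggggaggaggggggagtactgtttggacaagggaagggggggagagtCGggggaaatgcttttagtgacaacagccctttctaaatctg
Myl4: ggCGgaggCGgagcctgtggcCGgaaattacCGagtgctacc

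Myh6 showed 2 CpGs in its 250 bases and Myh7 showed 5, while the 42 bases before Myl4 held 4. Counted over the full RefSeq window, from 250 bases before to 50 after a start site, Myl4 had 25 CpGs and the other members had 1 to 7 at each of their listed starts. The median over 32851 such windows was 7, with quartiles of 3 and 20. Myl4 was thus the 1 member with a CpG-rich listed start, and it shares that stretch with Cdc27, a ubiquitous cell cycle gene. The annotated span of Myl4 begins at 104546017, before its listed start at 104550663. That of Myh6, on the minus strand, reaches 54968017, beyond its listed start at 54966607. CpGs at these outer ends were not counted.

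The second set shows matches to motifs known from heart and muscle promoters. For Actc1 (chr2:114052876-114052975, minus strand) and Myl7 (chr11:5898783-5898882, minus strand) capitals mark the CArG box, the site read by serum response factor. For Nppa (chr4:148000572-148000721) and Nppb (chr4:147985750-147985899), both on the plus strand, capitals mark GATAA on either strand, the core of a GATA factor site.
Actc1: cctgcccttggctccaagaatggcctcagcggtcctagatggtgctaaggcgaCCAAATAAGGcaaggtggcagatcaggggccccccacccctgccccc
Myl7: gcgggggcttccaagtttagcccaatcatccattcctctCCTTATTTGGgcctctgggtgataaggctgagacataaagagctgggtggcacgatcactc
Nppa: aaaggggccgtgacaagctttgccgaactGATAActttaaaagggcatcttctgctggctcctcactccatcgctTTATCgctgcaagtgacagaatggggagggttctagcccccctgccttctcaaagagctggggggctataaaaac
Nppb: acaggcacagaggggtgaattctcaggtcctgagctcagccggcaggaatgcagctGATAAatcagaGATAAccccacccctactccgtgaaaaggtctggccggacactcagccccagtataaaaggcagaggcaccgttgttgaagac

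Searched on both strands, a CArG box was in 1.63% of the 32851 windows and GATAA in 25.4%. The consensus of the CArG box reads the same on both strands, so a box found on both was counted once. The box printed for Actc1 is the reverse complement of the one printed for Myl7. GATAA was in the windows of Tnnt2, Tnni3, Myl7, Nppa and Nppb, and not in those of Myh6, Myh7, Actc1 and Myl4. A match is a run of letters only.

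The first question was which of the 9 genes differ in cells without both methyltransferases. In dKO against WT, Myh6, Myl7, Tnni3 and Myl4 rose, Tnnt2 and Nppb did not pass the test, and Myh7, Nppa and Actc1 had too few counts to be tested. "Rose" and "fell" are used only of genes with a Benjamini-Hochberg adjusted p under 0.05 in edgeR's quasi-likelihood test over 14145 genes. Of the 6 tested members 4 rose and 0 fell, where 33.7% of all tested genes rose and 31.0% fell, and the median log2 fold change was 1.32 beside -0.00 over all tested genes. Since the filter on low counts lets in a gene that is high in just 1 group, these shares describe the tested members and support nothing about the set. Libraries of the 2 groups did not overlap for the 4 that rose, as for 68.0% of all tested genes.

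Myh6 (chromosome 14, 54941921 to 54968017) had the widest change of the members. It was at 0, 0.187 and 0 CPM in the WT libraries. The dKO libraries held 6.48, 6.27 and 4.99 CPM, and the rescue libraries 0.429, 0.700 and 0.346 CPM. The 3 groups did not overlap: WT was at or next to 0, rescue was low and dKO was highest. In bulk samples a change in the number of expressing cells and a change in RNA per cell cannot be told apart, here and for every gene that follows. In counts, WT held 4, all in replicate 2, dKO 358 and rescue 38. The log2 fold change was 6.24 ± 0.47 (SE) in dKO against WT, with edgeR adjusted p = 3.27e-07. Without WT replicate 2 no WT count remains, and taking 3 counts over the 2 other WT libraries as the limit, dKO was at least 65.5-fold higher.

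Myh7 (chromosome 14, 54970684 to 54994626) lies next to Myh6, 2667 bp away. It had 0 counts in every WT library, 8, 7 and 11 in dKO, and 2 in each rescue library. Taking 3 counts over the WT group as the limit, the 26 dKO counts were at least 7.77-fold higher. Myh7 did not pass the filter. When genes were not filtered, edgeR gave it an adjusted p of 0.000202 in dKO against WT. Myh7 took 6.77% of the summed Myh6 and Myh7 counts in dKO (exact 95% binomial interval 4.47 to 9.76) and 13.6% in rescue (5.17 to 27.4), which overlap. The 2 genes are close copies, and how reads that match both were counted is not given, so the division between them is uncertain.

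The light chain Myl7 lies on chromosome 11, 5896637 to 5898782. Its WT libraries read 0.964, 0.932 and 0.774 CPM, its dKO libraries 3.84, 4.44 and 4.51 CPM, and its rescue libraries 1.92, 1.87 and 2.12 CPM. Its libraries fell into 3 separate steps, WT lowest, rescue between and dKO highest. The log2 fold change in dKO against WT was 2.27 ± 0.18 (SE), with edgeR adjusted p = 5.55e-07.

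The other light chain, Myl4 (chromosome 11, 104546017 to 104587215), was already present in WT at 4.20, 4.94 and 6.09 CPM. It reached 13.03, 14.7 and 8.23 CPM in dKO, where replicate 3 was the lowest, and stood at 1.97, 1.82 and 1.64 CPM in rescue. No library of 1 group reached into another, and the order was rescue, WT, dKO, unlike that of Myl7. Myl4 rose in dKO against WT by 1.22 ± 0.21 (log2 fold change, SE; edgeR adjusted p = 0.000278). The annotated span of Myl4 overlaps that of Cdc27, and the libraries do not mark strand. Cdc27 was at 165 ± 3.88 CPM in WT, 161 ± 23.9 in dKO and 172 ± 11.9 in rescue (SD, n = 3 libraries) and did not pass the test in any of the 3 comparisons, with log2 fold changes of -0.03, 0.09 and 0.06.

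Of the troponins, Tnni3 lies on chromosome 7, 4518305 to 4522718. WT libraries held 0.344, 0.373 and 0.980 CPM of it, dKO libraries 1.13, 1.32 and 2.04 CPM, and rescue libraries 0.257, 0.420 and 0.389 CPM. The dKO libraries lay above all others, while WT and rescue overlapped. The log2 fold change in dKO against WT was 1.41 ± 0.39 (SE), with edgeR adjusted p = 0.00678. It was 2.08 without WT replicate 3, the highest WT library. Without dKO replicate 3, the highest dKO library, it was 1.10 (edgeR adjusted p = 0.0213). Leaving out WT replicate 2 gave 1.13 (edgeR adjusted p = 0.0409). Dnaaf3, a dynein assembly factor 215 bp from Tnni3, was at 9.08 ± 0.716 CPM in WT, 6.16 ± 0.768 in dKO and 4.46 ± 0.158 in rescue (SD, n = 3 libraries) and fell in dKO against WT by 0.57 on the log2 scale, where Tnni3 rose.

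Tnnt2 lies on chromosome 1, 135836315 to 135852268. Its level was 0.895, 1.26 and 1.03 CPM in WT. It was 0.377, 0.555 and 1.36 CPM in dKO, then 0.429, 0.700 and 0.303 CPM in rescue. The dKO libraries disagreed among themselves: replicates 1 and 2 were under every WT library and replicate 3 was above them all. The log2 fold change in dKO against WT was -0.39 ± 0.41 (SE; edgeR adjusted p = 0.428). Without dKO replicate 3 it was -1.14, past the threshold (edgeR adjusted p = 0.0168). Lad1, an epithelial anchoring gene 2974 bp from Tnnt2, had 143 to 292 counts per WT library, 649 to 1343 in dKO and 269 to 473 in rescue. These counts are not scaled for depth, and the 473 were in rescue replicate 1, the deepest library.

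Cardiac actin, Actc1 (chromosome 2, 114047282 to 114052875), was close to absent from all libraries. It had 0 counts in WT, 2 in dKO and 2 in rescue. A count of 0 allows 0.0833 CPM in the deepest library and 0.241 in the shallowest, taking 3 counts of the total as the limit; limits and intervals cover counting error only. No difference in Actc1 was detectable at this depth.

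The natriuretic peptide genes lie side by side on chromosome 4, Nppb at 147985786 to 147987205 and Nppa at 148000722 to 148002074. For Nppb the WT libraries read 0.826, 0.326 and 0.928 CPM and the dKO libraries 0.301, 0.811 and 1.12 CPM, which overlap. The rescue libraries read 2.17, 1.54 and 1.82 CPM, above every other library. In dKO against WT its log2 fold change was 0.25 ± 0.44 (SE; edgeR adjusted p = 0.635), and the sign turned without WT replicate 2 or without dKO replicate 3 (-0.14 and -0.11). Counts of Nppa were 0, 0 and 1 in WT libraries, 1, 5 and 4 in dKO libraries, and 8, 4 and 6 in rescue libraries. The ratio of its summed counts was 8.97 for dKO to WT (exact 95% interval 1.28 to 389) and 12.5 for rescue to WT (1.98 to 522). Nppa did not pass the filter. With no filter, edgeR adjusted p was 0.0298 for dKO and 0.00857 for rescue, each against WT, and DESeq2 gave 0.0716 and 0.0312.

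**Figure D1:**
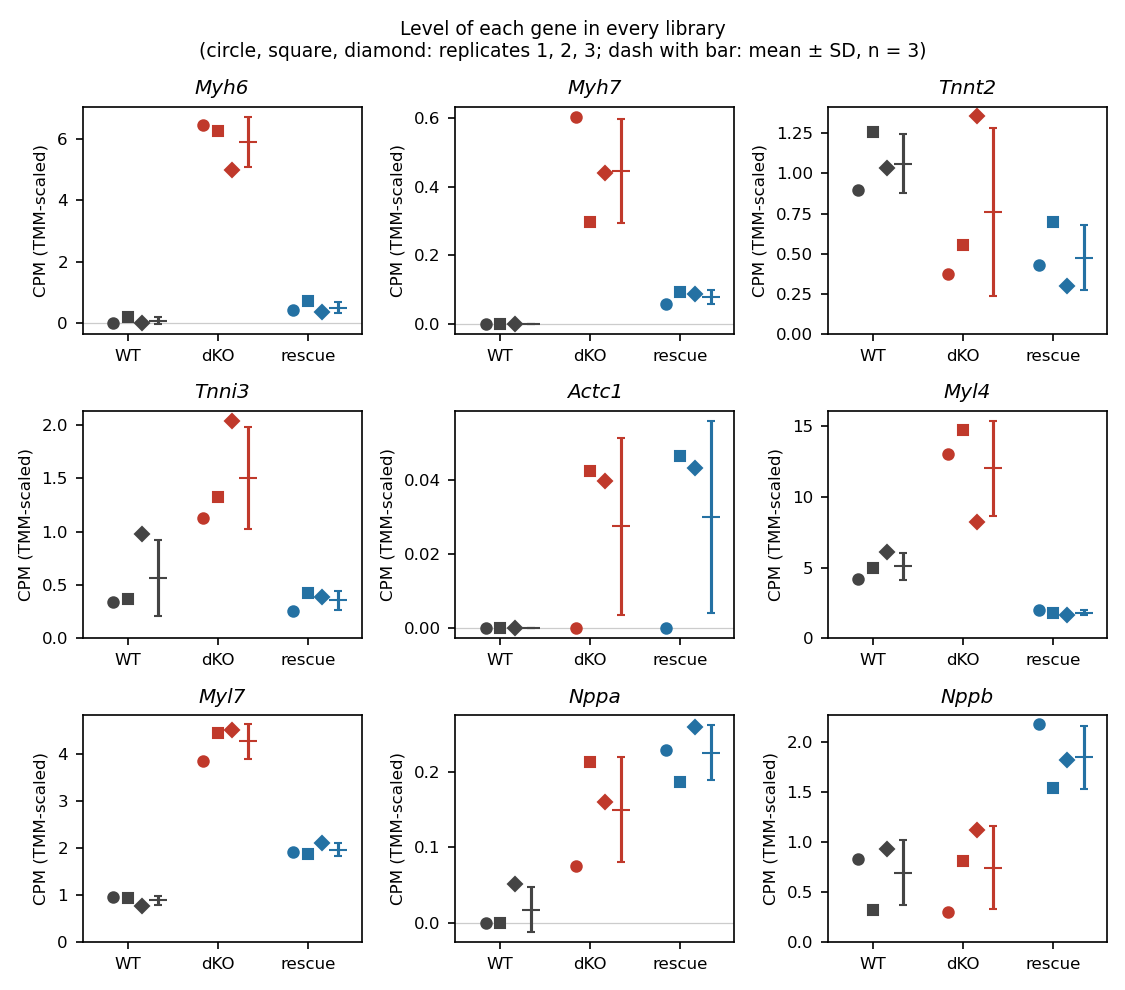
Level of each of the 9 genes in every library, in TMM-scaled CPM on a linear axis that differs between panels, with replicates 1, 2 and 3 as circle, square and diamond and the mean ± SD (n = 3) beside them. Myh6, Myl7, Tnni3 and Myl4 are highest in all dKO libraries, Nppb is highest in all rescue libraries, and Actc1 reaches at most 0.0467 CPM.

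The second question was how the members stand in the rescue libraries. Against dKO, Myh6, Myl4, Tnni3 and Myl7 fell and Nppb rose. So 4 of 6 tested members fell and 1 rose, where 38.2% of all tested genes fell and 32.1% rose. The comparison shares its dKO libraries with the first, so a fall here and a rise there are not separate evidence.

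Myl4 fell by 2.71 ± 0.23 (log2, SE; edgeR adjusted p = 7.18e-07) and Tnni3 by 2.15 ± 0.40 (adjusted p = 0.000398). Myl7 fell by 1.13 ± 0.15 (edgeR adjusted p = 3.66e-05). Myh6 fell by 3.60 ± 0.31 (edgeR adjusted p = 9.26e-07). With each chromosome's median in a library set to that of WT, to take out the low chromosome 14 of the rescue libraries, Myh6 fell by 2.85 (edgeR adjusted p = 2.79e-06). Myh7 was at 0.179 times its dKO level (exact 95% interval of the count ratio 0.0603 to 0.445). Tnnt2, at -0.80 ± 0.45 (SE), did not pass (edgeR adjusted p = 0.127), nor did it without dKO replicate 3, when the value was -0.06.

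Nppb rose by 1.21 ± 0.36 (log2, SE) in rescue against dKO, with edgeR adjusted p = 0.00986, and all 3 rescue libraries were above all dKO libraries. Groups did not overlap for the 5 members called in this comparison, as for 71.7% of all tested genes. It did not pass a test against a 1.5-fold change (adjusted p = 0.0638). Nppa had 18 counts in rescue and 10 in dKO, a ratio of 1.40 (exact 95% interval 0.612 to 3.39), so no difference was detectable. Clcn6, a chloride transporter gene 2185 bp from Nppa, was at 32.2 ± 1.68 CPM in WT, 22.3 ± 1.09 in dKO and 31.9 ± 1.32 in rescue (SD, n = 3 libraries). It rose by 0.51 in rescue against dKO (edgeR adjusted p = 6.25e-05) and did not pass in rescue against WT at -0.01 (adjusted p = 0.899).

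Compared directly with WT, the rescue libraries set the members apart from each other. Nppb rose by 1.46 ± 0.38 (log2, SE; edgeR adjusted p = 0.00668), Myl7 by 1.14 ± 0.19 (adjusted p = 0.000423) and Myh6 by 2.65 ± 0.71 (adjusted p = 0.00758). Myl4 fell by 1.48 ± 0.24 (edgeR adjusted p = 0.000338), and Tnnt2 fell by 1.19 ± 0.44 (adjusted p = 0.0358). Tnni3 did not pass at -0.74 ± 0.48 (edgeR adjusted p = 0.211). So 3 of 6 tested members rose and 2 fell, where 26.8% of all tested genes rose and 27.3% fell. Groups did not overlap for these 5 members, as for 65.3% of all tested genes.

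The Myh6 value in rescue rests on 38 counts against 4. Without WT replicate 2 the rescue libraries were at least 5.40-fold above WT, and with the chromosome medians levelled the log2 fold change was 3.43 (edgeR adjusted p = 0.000727). The 57 tested genes within 1 Mb of Myh6, members left out, went the other way in rescue against WT, with a median of -0.87. Of these 41 were lower and 3 higher, beside 27.3% and 26.8% of all tested genes. The low values were not particular to this stretch: over the 464 other tested genes of chromosome 14 the median was -0.85. Tnnt2 no longer passed when WT replicate 1, 2 or 3 was left out (edgeR adjusted p = 0.052, 0.129 and 0.0721), without rescue replicate 1 or 3 (0.112 and 0.116) and with DESeq2 (0.064).

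**Figure D2:**
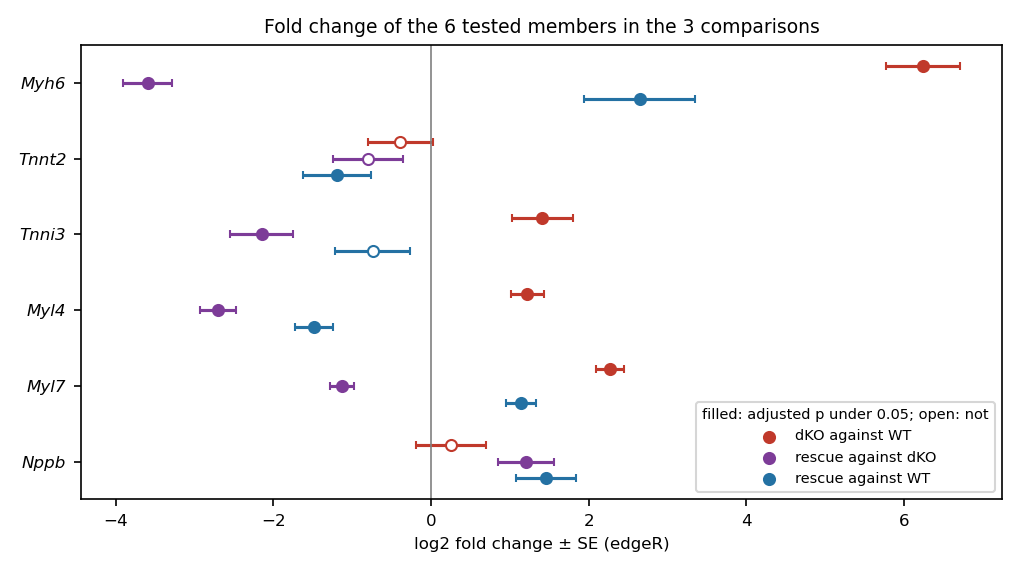
Log2 fold change with SE from the edgeR fit for the 6 tested members in the 3 comparisons, filled where the adjusted p was under 0.05 and open where it was not. Myh6 and Myl7 lie above 0 both in dKO and in rescue against WT, Myl4 lies above 0 in dKO and under 0 in rescue, and Nppb lies above 0 where rescue is compared.

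**Figure D3:**
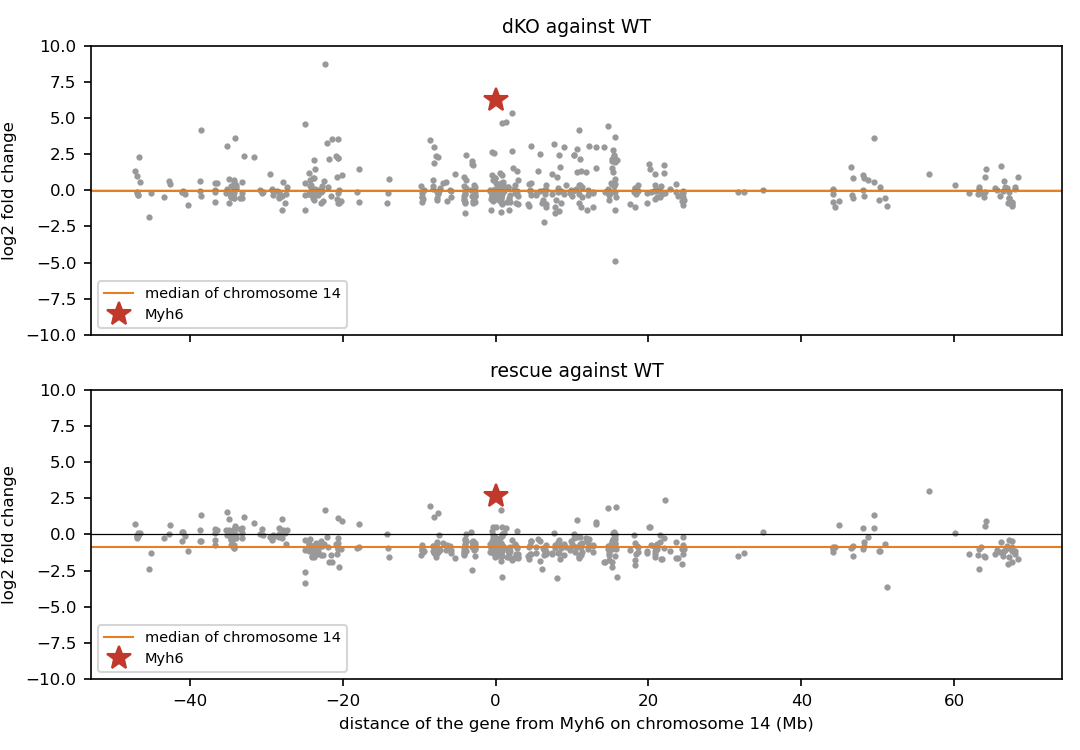
Log2 fold change of each tested gene of chromosome 14 against its distance from Myh6 in Mb, for dKO against WT (top) and rescue against WT (bottom), with the median of the chromosome as a line and Myh6 as a star. In rescue most genes around Myh6 lie under 0 while Myh6 stands at 2.65.

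The Suz12 peaks were used to ask whether PRC2 sits at these genes in wild-type cells. No member had a peak within 1 kb of a listed start site, where 15.3% of 24088 placed genes did. Counting the whole gene with 1 kb on either side, 3 of 9 members held a peak, beside 24.4% of all placed genes and 31.5% of those tested in the RNA fit. The 3 peaks lie deep inside Myh6 (chr14:54950082-54950772, 691 bp wide), Myh7 (chr14:54979105-54979682, 578 bp) and Myl4 (chr11:104571021-104571828, 808 bp).

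These peaks stood 15835, 14867 and 20358 bp from the nearest listed start site of their gene, and all 3 were narrower than the median peak of 1032 bp. A peak above that width was at 0 of 9 members and at 13.7% of placed genes. The peak in Myl4 overlaps the pseudogene Gm11663 within that gene. The gene table used here gives no exons, so whether the peaks are exonic or intronic was not determined. For the other members the nearest peak was 4553 bp from Tnni3, inside the neighbouring troponin gene Tnnt1, 13212 bp from Tnnt2, 33202 bp from Actc1, 34136 bp from Myl7, and over 100 kb from Nppa and Nppb (128245 and 143114 bp). Myl7 and Tnni3 therefore rose in dKO without a peak in the gene. The peaks come from another strain and from 1 list without replicates.

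**Figure D4:**
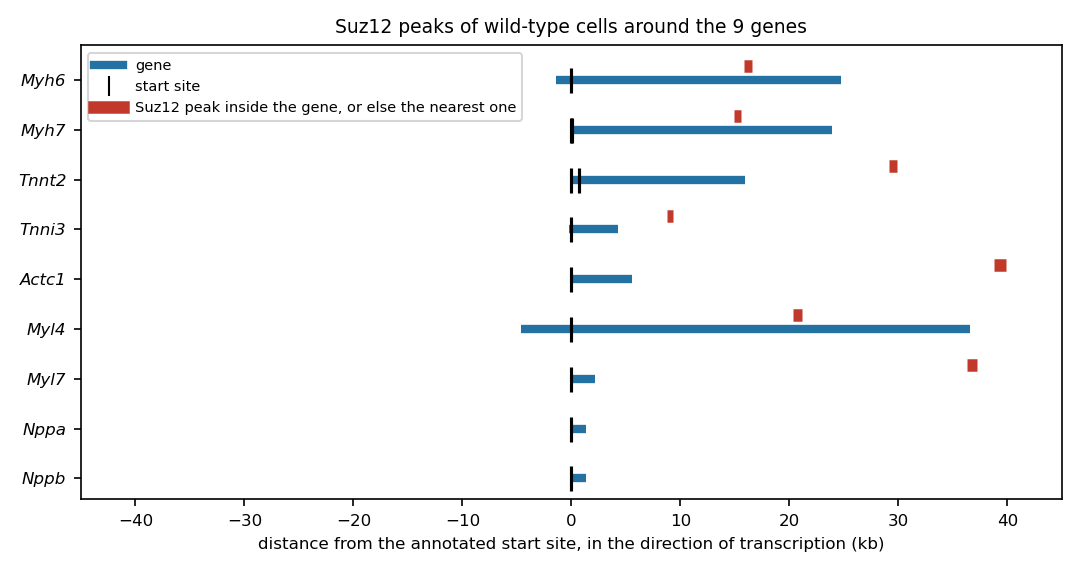
Position of Suz12 peaks relative to the start site of each gene, in kb along the direction of transcription, with the gene as a bar and start sites as ticks. The peaks of Myh6, Myh7 and Myl4 lie 14867 to 20358 bp from the start, no start site carries one, and the nearest peaks to Nppa and Nppb lie beyond the axis.

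The heart transcription factors that act upstream of such genes in the embryo were set beside them, from a list of 25, of which 20 were tested. Of the 25, 21 held a Suz12 peak, counted as for the members, beside 24.4% of all placed genes and 31.5% of those tested. Of the 20 tested, 15 rose in dKO against WT and 2 fell, leaving 3 that did not pass. Over all tested genes 33.7% rose and 31.0% fell in that comparison, the background for this and each list that follows. Their median log2 fold change was 2.50, beside -0.00 over all tested genes. Isl1, a LIM-homeobox factor of the second heart field, went from 1.28 ± 0.232 to 9.54 ± 0.334 CPM and was at 2.52 ± 0.0851 in rescue (SD, n = 3 libraries).

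The T-box factor Tbx3 was abundant in all groups and did not pass at 0.01 (edgeR adjusted p = 0.886). The 2 that fell were Mef2d (-0.39) and Zfpm2 (-1.65), named after their values were seen. The call of Mef2d was lost without WT replicate 3 or dKO replicate 1. In rescue against dKO 14 of the 20 fell and 3 rose, beside 38.2% and 32.1% of all tested genes. In rescue against WT 9 were higher and 1 was lower, beside 26.8% and 27.3%.

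Other sarcomere genes moved in both directions. Of 25 listed 15 were tested; 9 rose in dKO against WT, 2 fell and 4 did not pass (median 0.61). The M-band gene Myom2 was at 1.495 ± 0.392 CPM in WT, reached 14.7 ± 2.06 in dKO and was at 1.63 ± 0.312 in rescue (SD, n = 3 libraries). Tropomyosin Tpm2 went from 8.05 ± 0.362 to 26.8 ± 2.71 and 9.35 ± 0.585 CPM. The 2 that fell, again named after their values were seen, were Ttn, the giant spring protein of the sarcomere, by 2.91, and the Z-disc gene Ldb3 by 0.85 (log2). Mybpc3, cardiac myosin-binding protein C, did not pass in dKO at -0.32 (edgeR adjusted p = 0.357) and rose in rescue against dKO by 1.52 and against WT by 1.20 (edgeR adjusted p = 0.00115), the same direction as Nppb.

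Genes of calcium handling and excitation followed a similar split, with 13 of 17 tested, 9 higher in dKO, 3 lower and 1 not passing (median 1.09). Casq2, the calcium store protein of the cardiac sarcoplasmic reticulum, had a WT mean of 0.131 ± 0.114 CPM and a dKO mean of 3.28 ± 0.899 CPM (SD, n = 3 libraries). It was at 2.54 ± 0.346 CPM in rescue, where the change against dKO did not pass (-0.35, edgeR adjusted p = 0.236). Asph, whose locus also encodes the calcium-release partner junctin, rose by 1.09 in dKO and stood 0.81 above WT in rescue. The pacemaker channel Hcn4 did not pass in dKO at -0.35 (edgeR adjusted p = 0.35). The 3 that fell were Gja1, Atp2a2 and Ryr2 (-1.27, -0.49 and -0.55), named after their values were seen, and the call of Ryr2 was lost without WT replicate 1 or 3 and without dKO replicate 1 or 3.

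Of the natriuretic pathway, from a list of 11 with 7 tested, 3 rose in dKO against WT, 2 fell and 2 did not pass (median 0.25), shares near the background. Npr3, the receptor that clears natriuretic peptides, was at 13.99 ± 0.966 CPM in WT, 79.5 ± 4.02 in dKO and 31.6 ± 0.288 in rescue (SD, n = 3 libraries). The other 2 that rose were the CNP receptor Npr2 (1.74) and the phosphodiesterase Pde2a (2.79). Mme, the peptidase neprilysin, fell by 1.37, and Npr1, the receptor for ANP and BNP, by 0.60, a call lost without WT replicate 3 or dKO replicate 3. Furin, a protease that processes pro-hormones, stood at 0.20 and did not pass (edgeR adjusted p = 0.13).

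**Figure D5:**
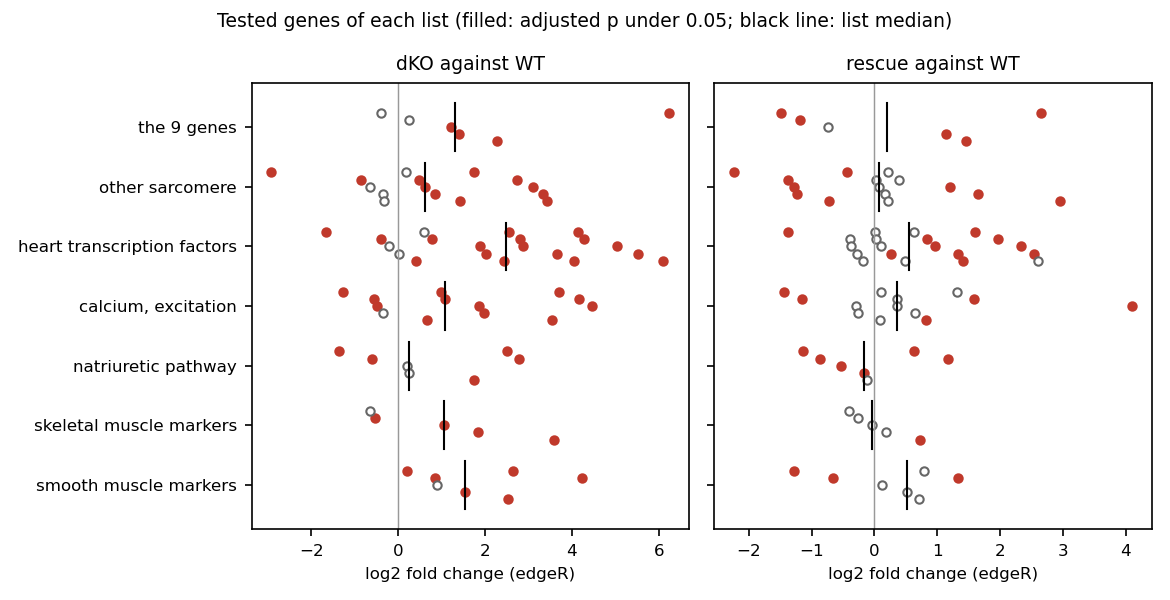
Log2 fold change of every tested gene in 7 gene lists, for dKO against WT (left) and rescue against WT (right), filled where the adjusted p was under 0.05, with the median of each list as a black line. In dKO the medians are 2.50 for the heart transcription factors, 1.53 for smooth muscle and 1.32 for the 9 genes, of which 6 were tested.

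Of the sarcomere list 10 genes and of the calcium list 4 had too few counts to be tested. Pln, Sln, Trdn, Tcap, Myoz2 and Xirp2 were at 0 in all 9 libraries. Csrp3 had 1 count in all and Lmod2 had 2. The ventricular light chain gene Myl2 had 13 counts in WT, 6 in dKO and 1 in rescue, while its partner Myl3 had 4, 41 and 3 and the stress-response gene Ankrd1 had 0, 13 and 5. Nebl had 4, 4 and 15 counts, Xirp1 4, 10 and 5, and Gja5 4, 9 and 1.

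Markers of other cell types were read as well. Of the 20 genes of the skeletal muscle list 19 were in the tables and 5 were tested, 3 higher and 1 lower in dKO. Its sum was 104 to 136 CPM in WT, 87.4 to 103 in dKO and 95.8 to 116 in rescue. Most of it was Mylpf, the 1 gene lower in dKO, at 97.7 to 131 CPM in WT and 76.3 to 88.5 in dKO. Pax7, the factor of muscle stem cells, rose by 3.58 in dKO (edgeR adjusted p = 1.35e-05), with 5 counts in WT, 70 in dKO and 7 in rescue. The regulators Myf5 and Myf6 had 0 counts throughout and Myod1 had 0, 3 and 4. Myh3, the embryonic skeletal myosin, went from 1.80 ± 0.273 to 6.44 ± 1.14 CPM and was 1.35 ± 0.330 in rescue (SD, n = 3 libraries). Of the smooth muscle list 7 of 10 were tested, 6 higher and 0 lower in dKO, with a median of 1.53 and sums of 48.9 to 49.8 CPM in WT, 69.99 to 79.1 in dKO and 41.6 to 45.5 in rescue. Its actins Acta2 and Actg2 had 12 and 11 counts in dKO and 0 in WT, and Myl9 rose by 4.23.

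Of the primitive endoderm list, which shares Gata4 and Gata6 with the heart factors, 11 of 12 were tested, 10 higher and 0 lower in dKO, with a median of 2.97 and sums of 216 to 227 CPM in WT, 452 to 622 in dKO and 249 to 259 in rescue. The endothelial sum went the other way, 245 to 257 CPM in WT, 159 to 169 in dKO and 245 to 255 in rescue, with 4 of 6 tested genes higher and 2 lower (median 2.14). Pecam1, one of those lower, was the most abundant. The fibroblast sum was 337 to 357 CPM in WT, 66.98 to 81.7 in dKO and 143 to 148 in rescue, most of it Vim in WT, with 5 of 6 tested genes higher and 1 lower, Vim itself (median 1.79). The part of these cell types in the levels of the 9 genes was not tested.

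Genes with the most similar pattern were sought for the 3 tested members with the highest mean level, as the smallest root-mean-square difference in log2 CPM over the 9 libraries after each gene's mean was subtracted, among 11272 genes. The 0.5 CPM added before logs narrows fold differences at low levels, so a small distance need not mean a like fold change. Myh6 had means of 0.0622, 5.91 and 0.492 CPM in WT, dKO and rescue. Nearest to Myh6 were Ehd2, an endocytic ATPase gene (0.154 log2 units, with 0.598, 12.3 and 1.54 CPM in the same order), Cdc42ep1 (0.193) and Mboat1 (0.209). Nearest to Myl7 were Tc2n (0.096), Smpdl3a (0.115) and Chsy1, a chondroitin synthase gene (0.115; 23.7, 78.2 and 39.5 CPM). Nearest to Myl4 were Cd164l2 (0.176), Tmcc2 (0.183) and the matrix gene Matn3 (0.186; 2.05, 4.65 and 0.656 CPM).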

How the data were processed

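For RNA the authors deposited raw counts per gene, with no normalization. The submitters' processing notes name Trimmomatic, STAR 2.4.0, HTSeq and mm10; no counting mode or annotation is named. Per the labels' protocols, polyA RNA went into the TruSeq v2 kit, whose reads carry no strand. The Suz12 file was deposited with peak coordinates and no other values used; positions are printed 1-based. Of 71 samples, 61 ChIP samples were not analysed here.

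RefSeq's GRCm38.p6 table gave a position for 22858 genes through their symbol and 1230 through a synonym, leaving 134 without one. No table entry lacked a gene name. One edgeR 4.0.16 fit (R 4.3.3) held all 9 libraries: TMM, filterByExpr by group, robust glmQLFit and two-sided glmQLFTest, with 6 residual degrees of freedom. SEs were derived from the fold change and its F statistic. The alternatives, DESeq2 1.42.0 among them, are in the closing section. The fit was also run on simulated counts in which few genes changed, so that run does not gauge the error rate of the calls made here.

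The members and gene lists were chosen with earlier results of these data known. Named are all 9 members, 3 genes per list (the 2 smallest and the largest adjusted p in dKO against WT; fewer for other cell types), neighbours, and the 3 nearest patterns with a mean of at least 2 CPM, predicted genes left out (0.5 CPM added before logs). One gene that this rule names is not reported here.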

Additional observations from a re-analysis of the deposited data

How the results depend on the processing

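Of 331 alternative values of the members' fold changes, 318 kept their direction and their side of the threshold. Another 10 lost the call (8 for Tnnt2 in rescue against WT, 2 for Nppb), 1 gained it (Tnnt2 in dKO against WT) and 2 reversed. The reversals were Nppb in dKO against WT, which ranged from -0.14 (without WT replicate 2) through -0.11 (without dKO replicate 3) to 0.58 (without WT replicate 3) with 1 library left out; the cause was not tested. With 1 library left out, members called lower numbered 0 to 1 in dKO against WT and 1 to 2 in rescue against WT. Tested against a 1.5-fold change, a stricter null, dKO against WT gave 3790 calls over all genes (2853 higher, 937 lower; 9151 in the test used), rescue against dKO 4273 (1131 and 3142; 9941) and rescue against WT 1833 (868 and 965; 7653). Members called under it were 0 higher in rescue against dKO, and 3 in rescue against WT, 1 of them lower. With a mean of at least 2 CPM required, fewer members were tested: 3 were called in rescue against dKO (0 higher) and 3 in rescue against WT (1 lower). DESeq2 and an adjusted p under 0.01 each left 1 member lower in rescue against WT. Counting only peaks above the median width, or within 1 kb of a start site, left 0 members with a Suz12 peak. Members with few counts (Actc1, Nppa, Myh7) are limited by depth.

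With the replicate number as a block, 9148 genes were called in dKO against WT (4 members), 9917 in rescue against dKO (5) and 7612 in rescue against WT (5), and no member's call changed. Deviations of same-numbered libraries correlated at -0.11 to 0.20 and those of other pairs at -0.27 to 0.19. The highest value was that of WT replicate 3 with rescue replicate 3, while WT replicate 1 correlated best with rescue replicate 2 (0.19). As the 2 ranges overlap, these values cannot decide whether the numbers pair the libraries.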
